A study of Mus musculus with 12 samples.

Results

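Esrp1, Esrp2, Mbnl1, Mbnl2, Mbnl3, Rbfox2, Ptbp1 and Ptbp2 encode RNA-binding proteins that regulate alternative splicing, and their RNA was followed here from embryonic stem cells (ESC) to day 3 of differentiation. The genes were chosen by name. For each name, the locus of the assembled transcriptome was taken whose transcripts either match the annotated gene or share a splice junction with it. This gave 8 loci out of 79655 with a position in the mouse genome (mm10). Every name had 1 such locus, and all 8 were among the 17922 loci tested, which had a mean above 0.1 FPKM (counts scaled to the length of the exons and to library size) in at least 1 group.

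The cells came from a C57BL/6 mouse ESC line with a reporter, EomesEGFP, in which a green fluorescent protein (GFP) is expressed from Eomes, a T-box gene of the forming mesendoderm. The 4 ESC libraries (day 0) were made from cells grown on mouse embryonic fibroblast feeders, and 8 libraries were made from embryoid bodies sorted at day 3 into GFP-positive cells (Eo+, n = 4) and GFP-negative cells (Eo−, n = 4). All groups derive from this reporter line, so each group samples 1 genotype. The replicates are numbered 1, 2, 5 and 6 in each group and come from 4 differentiation sets. Total counts ranged from 648413022 to 837308168 per library, at which 3 counts amounted to at most 0.00485 CPM (counts scaled to a common library size). Eomes itself lay between 37.9 and 59.4 CPM in ESC, between 120 and 174 CPM in Eo− and between 463 and 665 CPM in Eo+ libraries. The summed level of 6 pluripotency markers was 2851 to 3701 CPM in ESC, 1321 to 1697 CPM in Eo− and 471 to 831 CPM in Eo+ libraries. That of 6 mesendoderm markers was 95.7 to 299 CPM in ESC, 259 to 530 CPM in Eo− and 1782 to 3083 CPM in Eo+ libraries.

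Splicing regulators bind short motifs in pre-mRNA and raise or lower the use of nearby exons, so a change in their amount can alter the isoforms of many genes at once. ESRP proteins are epithelial regulators whose loss accompanies the epithelial-mesenchymal transition, in which cells of the primitive streak also take part. MBNL proteins repress exon patterns typical of ESCs and promote those of differentiated cells. RBFOX2 binds the motif GCAUG and acts in ESCs, muscle and brain, and the polypyrimidine tract-binding proteins PTBP1 and PTBP2 are mostly repressors, with PTBP1 widespread and PTBP2 known for its role in the developing nervous system. Several of these proteins also regulate exons in their own transcripts or in those of a relative.

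The loci carry such exons in the transcripts that the authors assembled from these libraries. Mbnl1 (chr3:60501252-60629981, plus strand) had 4 assembled transcripts and Mbnl2 (chr14:120275659-120431736, plus strand) had 9. Both contain a coding exon of 54 nt, which in these genes is controlled by MBNL proteins and affects where in the cell the protein resides. The exon was included in 3 and skipped in 1 of the Mbnl1 transcripts, and included in 4 and skipped in 2 of the Mbnl2 transcripts. The GENCODE M21 sequences of both exons (GRCm38, chr3:60614683-60614736 and chr14:120395712-120395765) are shown to compare the paralogs. Capitals mark the 46 positions at which they are identical, and the other 8 positions are in lower case.
Mbnl1 exon: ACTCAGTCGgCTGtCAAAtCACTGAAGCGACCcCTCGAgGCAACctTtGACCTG
Mbnl2 exon: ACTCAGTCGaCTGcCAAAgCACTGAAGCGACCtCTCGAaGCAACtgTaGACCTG

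Ptbp1 (chr10:79854427-79868029, plus strand) and Ptbp2 (chr3:119713514-119783712, minus strand) share a coding exon of 34 nt. Its length is not a multiple of 3, so skipping shifts the reading frame, and PTBP1 is known to promote skipping of this exon in Ptbp2 and in its own transcript. Among 22 assembled Ptbp1 transcripts, 9 included and 2 skipped the exon. Among 7 assembled Ptbp2 transcripts, 5 included it and 0 skipped it. Capitals mark the 26 positions shared by both exons (GRCm38, chr10:79862014-79862047 on the plus strand and chr3:119724612-119724645 on the minus strand).
Ptbp1 exon: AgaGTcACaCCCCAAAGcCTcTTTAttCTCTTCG
Ptbp2 exon: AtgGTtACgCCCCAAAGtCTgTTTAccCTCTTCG

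Rbfox2 (chr15:77076929-77307215, minus strand) had 15 assembled transcripts and contains exons of 40 nt and 43 nt that are known for use in brain and muscle, respectively. The exon of 40 nt (chr15:77094451-77094490) was included in 13 and skipped in 2 of the assembled transcripts. The exon of 43 nt (chr15:77091812-77091854) was included in 1 and skipped in 14 of them. Both are printed from GENCODE M21 in lower case, since they are not aligned to each other.
Rbfox2 exon of 40 nt: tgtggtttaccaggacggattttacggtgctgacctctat
Rbfox2 exon of 43 nt: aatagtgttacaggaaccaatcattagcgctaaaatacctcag

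The assembled transcripts were merged over all libraries and the counts are totals per locus. The use of these exons in a group was therefore not measured, and the values below are levels of the whole locus. The remaining loci were Esrp1 (chr4:11331888-11387229, minus strand, 11 transcripts), Esrp2 (chr8:106130319-106137078, minus strand, 13 transcripts) and Mbnl3 (chrX:51022861-51206532, minus strand, 16 transcripts).

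Compared to ESC, 4 of the 8 genes changed in Eo+ cells at an adjusted p of at most 0.05 (limma-voom, Benjamini-Hochberg over all loci tested). Esrp1 and Ptbp2 rose, and Esrp2 and Mbnl1 fell. Over all loci tested, 71.9% were called in this comparison, 35.8% as higher and 36.1% as lower. A change of at least 1 on the log2 scale was called for 3 of the 8 genes (Esrp2, Mbnl1 and Ptbp2) and for 38.1% of all loci. For 4 of the 8 genes, and for 64.5% of all loci, no library of one group reached the range of the other. In Eo− cells, 7 of the 8 genes changed compared to ESC, 3 higher and 4 lower, against 62.2% of all loci (30.9% higher and 31.3% lower). This count rested on single libraries and on the scaling, since 4 genes were called without ESC replicate 1, 2 or 5 or without Eo− replicate 5 or 6, and 3 with library totals in place of TMM, where 62.5% of all loci were called. These last 3, Esrp1, Mbnl3 and Ptbp2, were all higher. Over all loci, library totals called 6200 higher and 5004 lower, against 5544 and 5610 with TMM. None of the 7 changes called with all libraries reached 1 on the log2 scale (0 of 8, against 28.3% of all loci), and the libraries did not overlap for 4 of the 8 genes, against 55.8% of all loci. Between the sorted fractions, 3 of the 8 genes differed, Rbfox2 being higher and Esrp1 and Esrp2 lower in Eo+, against 47.7% of all loci (23.0% higher and 24.6% lower). Of these 3 genes, 1 (Esrp2) differed by at least 1 on the log2 scale, against 21.1% of all loci. The libraries did not overlap for 2 of the 8 genes, against 45.9% of all loci. With the replicate number, which was taken to mark the differentiation set, as a block in the comparison of the fractions, 5 of the 8 genes and 53.3% of all loci were called.

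The median absolute log2 fold change of the 8 genes was 0.35 for Eo+ and 0.53 for Eo− compared to ESC, and 0.26 for Eo+ compared to Eo−. Over all loci tested it was 0.68, 0.51 and 0.36. These counts and medians describe 8 genes and do not set them apart from other loci. Both comparisons with ESC share the same ESC libraries, so both sets of values are given side by side without a measure of their overlap. Since these are bulk samples, fewer cells that express a gene and less RNA of it per cell cannot be told apart.

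**Figure D1:**
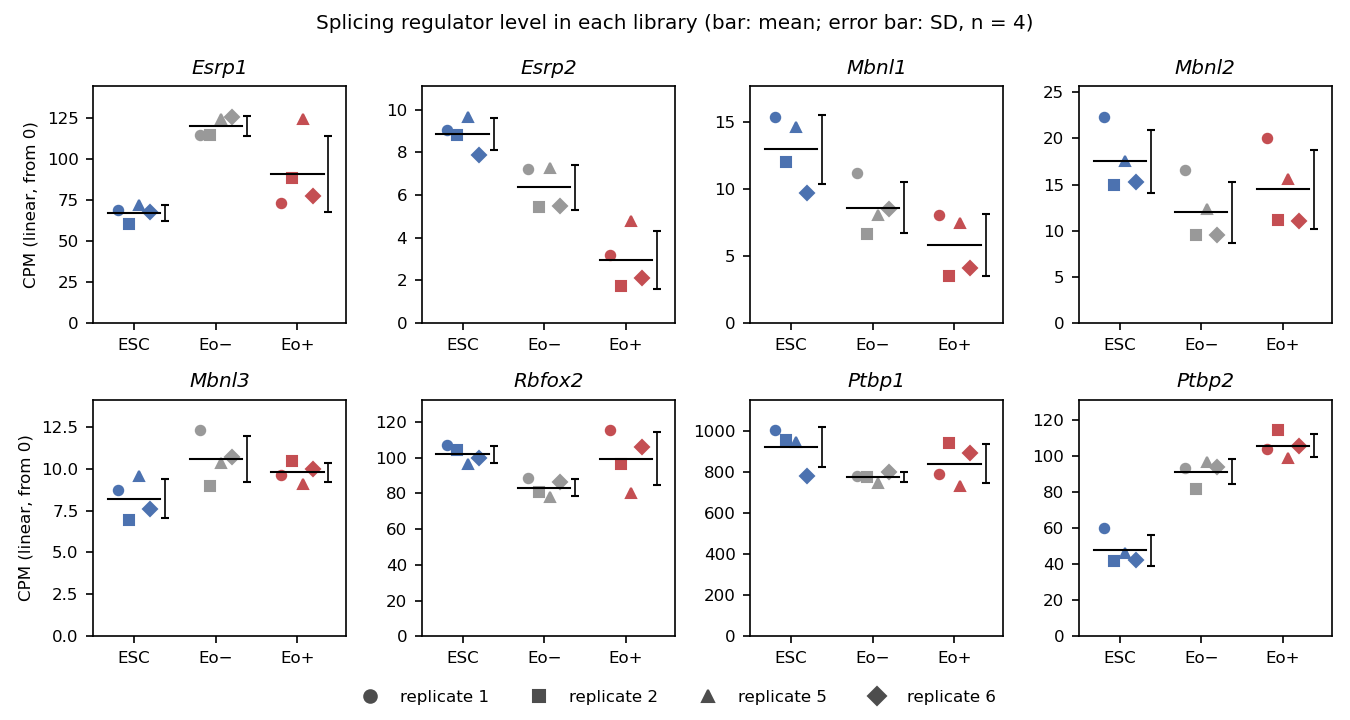
Level of each of the 8 genes in CPM (linear axes from 0, a different scale per gene) in the 12 libraries, grouped as ESC, Eo− and Eo+, with the replicate number as marker shape, the mean as a horizontal bar and the SD (n = 4) as an error bar. Ptbp2 lay between 41.5 and 60.2 CPM in ESC and at 81.3 CPM or more in every sorted library, whereas Esrp2 stepped down from ESC to Eo− to Eo+.

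**Figure D2:**
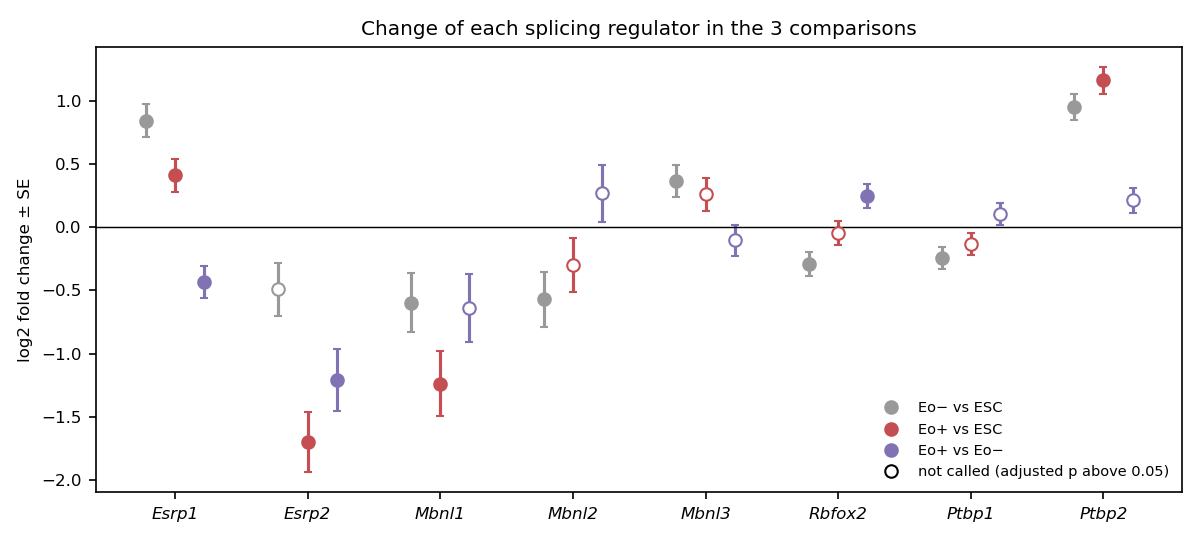
Log2 fold change of each gene with its standard error (limma-voom) for either fraction against ESC and for Eo+ against Eo−. Filled points have an adjusted p of at most 0.05. Esrp1 and Esrp2 lay on opposite sides of 0 in both comparisons with ESC and both lay below 0 in Eo+ vs Eo−.

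The epithelial regulators moved in opposite directions in Eo+ cells, where Esrp1 rose and Esrp2 fell compared to ESC. Esrp1 had 68.7, 60.3, 71.8 and 67.7 CPM in ESC replicates 1, 2, 5 and 6. In Eo− it had 115, 115, 125 and 126 CPM, and in Eo+ 73.3, 88.4, 124 and 77.7 CPM. All sorted libraries lay above all ESC libraries, the Eo− libraries were close together, and Eo+ replicate 5 lay within the Eo− range while the other Eo+ libraries lay below it. Esrp1 was 1.79-fold higher in Eo− than in ESC (log2 fold change 0.84 ± 0.13 SE, adjusted p = 8.36e-05) and 1.33-fold higher in Eo+ than in ESC (0.41 ± 0.13, adjusted p = 0.0133). Without Eo+ replicate 5 the latter value was 0.25 ± 0.08 (adjusted p = 0.0170). It was lower in Eo+ than in Eo− (−0.43 ± 0.13, adjusted p = 0.0132), which gives the order Eo−, Eo+, ESC. The call between the fractions was lost without Eo+ replicate 1 (adjusted p = 0.0510).

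Esrp2, the paralog with similar binding properties, had 9.05, 8.84, 9.67 and 7.86 CPM in ESC replicates 1, 2, 5 and 6. It had 7.24, 5.43, 7.29 and 5.49 CPM in Eo− and 3.19, 1.71, 4.78 and 2.12 CPM in Eo+. The 3 groups did not overlap, with ESC highest and Eo+ lowest, and Eo+ replicate 5 was again the highest of its group. Esrp2 was 3.25-fold lower in Eo+ than in ESC (−1.70 ± 0.24, adjusted p = 1.96e-05) and 2.31-fold lower in Eo+ than in Eo− (−1.21 ± 0.24, adjusted p = 0.00117). Between Eo− and ESC the log2 difference was −0.49 ± 0.21 and missed the threshold (adjusted p = 0.0543), with a range of 0.00925 to 0.133 over 20 alternative fits (other tools, scalings, filters and designs, and each library left out). With the replicate number as a block it was called (−0.47 ± 0.16, adjusted p = 0.0258).

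Per kilobase, Esrp1 was the more abundant of both genes in every library. Esrp1 reached a mean of 9.88 ± 0.713 FPKM in ESC, 17.7 ± 0.895 FPKM in Eo− and 13.4 ± 3.41 FPKM in Eo+ (SD, n = 4), and Esrp2 1.99 ± 0.168, 1.43 ± 0.234 and 0.663 ± 0.308 FPKM. The ratio of Esrp1 to Esrp2 in FPKM was 4.46 to 5.63 in ESC libraries, 10.4 to 14.98 in Eo− libraries and 15.02 to 33.8 in Eo+ libraries. The ranges of Eo− and Eo+ thus almost touched. On the log2 scale the ratio was 2.10 higher in Eo+ than in ESC, 1.33 higher in Eo− than in ESC and 0.78 higher in Eo+ than in Eo−. Each of these differences had an exact permutation p of 0.0286 (two-sided, 4 against 4, the smallest that free exchange of the labels allows) and an adjusted p of 0.0381 over the 12 ratio tests. With labels exchanged only within a replicate number, a test chosen after seeing the data, the smallest possible p is 0.125, so no ratio can pass the threshold. Each of these 3 differences had that p and was positive in 4 of 4 numbers, and the same held for every ratio given below with an exact p of 0.0286. Esrp2 thus made up 16.8% ± 1.33 of the summed ESRP level in ESC, 7.50% ± 1.20 in Eo− and 4.67% ± 1.52 in Eo+ (SD, n = 4).

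Markers of epithelial and mesenchymal cells also differed between the groups. The summed level of 10 epithelial markers was 803 to 1170 CPM in ESC, 1481 to 1670 CPM in Eo− and 1036 to 2213 CPM in Eo+ libraries. Compared to ESC, 5 of these 10 markers were higher and 2 lower in Eo+ (median log2 fold change 0.70), and 6 were higher and 1 lower in Eo− (median 0.66). Those higher in Eo+ than in ESC were Rab25 (log2 fold change 2.08), Cldn6 (1.89), Cldn7 (1.82), Krt8 (1.54) and Krt18 (1.52). In Eo+ vs Eo−, 9 were called, 7 of them lower in Eo+ and 2 higher, Krt8 (1.83) and Krt18 (0.96). Cdh1, the adhesion molecule E-cadherin, had 591 ± 32.6 CPM in Eo− and 319 ± 113 CPM in Eo+ (SD, n = 4), and within Eo+ it was highest in replicate 5 (487 CPM), the library with the most Esrp1 and Esrp2. Grhl2, a transcription factor of epithelial cells, had 36.3 ± 5.87 CPM in ESC, 37.5 ± 2.52 CPM in Eo− and 11.4 ± 2.86 CPM in Eo+. Grhl2 and Cldn4 were the 2 epithelial markers that fell in Eo+ compared to ESC (−1.69 ± 0.16, adjusted p = 4.51e-07, and −1.86 ± 0.27, adjusted p = 2.42e-05), and Grhl2 was not called in Eo− vs ESC (0.06 ± 0.13, adjusted p = 0.700). The summed level of 10 mesenchymal markers was 1023 to 1677 CPM in ESC, 488 to 1136 CPM in Eo− and 1706 to 3694 CPM in Eo+ libraries, and 8 of the 10 were called higher in Eo+ than in Eo−, with 0 lower. Snai1, a repressor of epithelial genes, had 47.7 CPM in Eo+ replicate 5 and 70.6 to 165 CPM in the other Eo+ libraries. In that replicate the mesenchymal sum was the lowest and the epithelial sum the highest of Eo+. A list of 6 visceral endoderm markers summed to 4.42 to 8.31 CPM in ESC and 2.69 to 12.6 CPM in Eo− libraries. In Eo+ replicates 1, 2, 5 and 6 the sum was 85.8, 4.63, 41.8 and 17.5 CPM. Esrp2 was likewise highest in Eo+ replicates 5 and 1, whereas Esrp1 was highest in replicates 5 and 2. All 10 epithelial and all 10 mesenchymal markers were detected in every library, and the part of these cell states in the ESRP values was not tested.

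**Figure D3:**
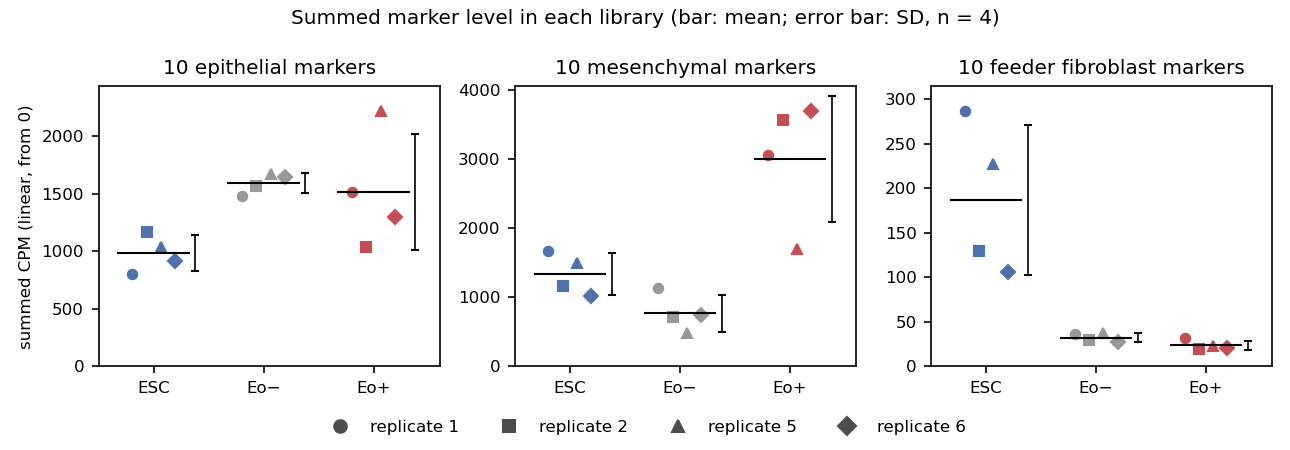
Summed CPM of 10 epithelial, 10 mesenchymal and 10 feeder fibroblast markers in each library (linear axes from 0), with the mean as a bar and the SD (n = 4) as an error bar. Eo+ replicate 5 (triangle) had the highest epithelial sum and the lowest mesenchymal sum of its group, and the feeder sum was highest in ESC, with replicates 1 and 5 above replicates 2 and 6.

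Of the muscleblind-like genes, Mbnl1 was lower in both fractions than in ESC. It had 15.3, 12.01, 14.6 and 9.69 CPM in ESC replicates 1, 2, 5 and 6, 11.2, 6.64, 8.06 and 8.47 CPM in Eo−, and 8.04, 3.51, 7.46 and 4.10 CPM in Eo+. All Eo+ libraries lay below all ESC libraries, and Eo− replicate 1 reached into the ESC range. Mbnl1 fell 2.36-fold in Eo+ compared to ESC (−1.24 ± 0.25, adjusted p = 0.000590) and 1.51-fold in Eo− compared to ESC (−0.60 ± 0.23, adjusted p = 0.0388). The first call held in all 20 alternative fits, whereas the second was lost in 8 of 20, among them each analysis without ESC replicate 1, 2 or 5 (adjusted p up to 0.113 over the 20). Between Eo+ and Eo− the difference of −0.64 ± 0.27 missed the threshold (adjusted p = 0.0627). Same-numbered Eo+ and Eo− libraries deviated together from their group means, and with the replicate number as a block in a fit of these fractions alone, chosen after the data had been seen, Mbnl1 was lower in Eo+ (−0.59 ± 0.14, adjusted p = 0.00899). Its order was therefore ESC, Eo−, Eo+, with the last step called only in the paired fits and without single libraries.

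Mbnl2 encodes a protein that overlaps with MBNL1 in its targets. It had 22.3, 14.9, 17.5 and 15.3 CPM in ESC, 16.6, 9.51, 12.3 and 9.51 CPM in Eo−, and 20.0, 11.2, 15.6 and 11.1 CPM in Eo+ (replicates 1, 2, 5 and 6). The groups overlapped, and in each group replicate 1 was highest and replicate 5 next. Mbnl2 was lower in Eo− than in ESC (−0.57 ± 0.22, adjusted p = 0.0349), a call lost in 6 of 20 alternatives, among them those without ESC replicate 1 or 5. It was not called in Eo+ vs ESC (−0.30 ± 0.21, adjusted p = 0.220) or in Eo+ vs Eo− (0.27 ± 0.23, adjusted p = 0.347). With the replicate number as a block over all groups it was called lower in Eo+ than in ESC (−0.28 ± 0.08, adjusted p = 0.00649), and Eo+ lay below ESC in 4 of 4 numbers. In the paired fit of the fractions it was called higher in Eo+ (0.27 ± 0.06, adjusted p = 0.00711).

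Feeder fibroblasts, which support the ESC cultures, are another possible source of RNA in the ESC libraries. The summed level of 10 fibroblast markers was 286, 130, 227 and 106 CPM in ESC replicates 1, 2, 5 and 6, 26.9 to 37.3 CPM in Eo− and 19.2 to 31.6 CPM in Eo+ libraries. Of the 8 markers tested, 8 were lower in Eo+ than in ESC, and in Eo− vs ESC 6 were lower and 1 higher. Col1a1, a fibrillar collagen, had 96.5, 54.7, 80.7 and 33.1 CPM in these ESC libraries. None of the 10 markers was at 0 in all libraries of a group, but S100a4 was at 0 in Eo+ replicate 2 and at most at 0.0161 CPM in the other sorted libraries, against 6.79 to 21.3 CPM in ESC. ESC replicates 1 and 5, with the most fibroblast RNA, also had the most Mbnl1 and Mbnl2 in ESC. The same held for Esrp1, Esrp2, Mbnl3 and Ptbp2, and not for Rbfox2 and Ptbp1. The part of feeder RNA in the values of the 8 genes was not tested. The log2 fold change of Mbnl1 in Eo+ vs ESC was −1.14 without ESC replicate 1 and −1.17 without ESC replicate 5, each with the other of these libraries still in the fit, and the calls of Mbnl1 and Mbnl2 in Eo− vs ESC were lost without either one (adjusted p from 0.0603 to 0.111). Both calls were also lost without Eo− replicate 2, 5 or 6, and that of Mbnl1 without ESC replicate 2. With any 1 library left out, the log2 fold change in Eo− vs ESC stayed between −0.74 and −0.48 for Mbnl1 and between −0.75 and −0.44 for Mbnl2.

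Mbnl3, the member of the family that favours undifferentiated states in muscle precursors, had 8.74, 6.93, 9.56 and 7.59 CPM in ESC, 12.3, 8.94, 10.3 and 10.7 CPM in Eo−, and 9.63, 10.4, 9.07 and 9.98 CPM in Eo+. It rose in Eo− compared to ESC (0.36 ± 0.13, adjusted p = 0.0224), although Eo− replicate 2 lay within the ESC range, and the call was lost in 4 of 20 alternatives. The values in Eo+ vs ESC (0.26 ± 0.13, adjusted p = 0.0864) and Eo+ vs Eo− (−0.10 ± 0.12, adjusted p = 0.509) were not called, the first being called without ESC replicate 5 (0.34 ± 0.13, adjusted p = 0.0363). The Mbnl3 locus of the assembly reaches beyond the annotated gene, and its exon length of 12816 nt enters its FPKM.

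Per kilobase, Mbnl2 was the most abundant of the 3 genes in ESC (3.40 ± 0.661 FPKM), followed by Mbnl1 (2.18 ± 0.437 FPKM) and Mbnl3 (0.640 ± 0.0917 FPKM). The summed level was 6.22 ± 1.11 FPKM in ESC, 4.60 ± 1.04 FPKM in Eo− and 4.55 ± 1.17 FPKM in Eo+ (SD, n = 4). The share of Mbnl1 in this sum was 35.0% ± 2.77 in ESC, 31.6% ± 2.21 in Eo− and 20.9% ± 3.83 in Eo+. The ratio of Mbnl2 to Mbnl1 was 1.38 to 1.81 in ESC libraries, 1.29 to 1.76 in Eo− libraries and 2.40 to 3.66 in Eo+ libraries. On the log2 scale it was higher in Eo+ than in ESC by 0.93 and higher than in Eo− by 0.90 (exact permutation p = 0.0286 each, adjusted p = 0.0381), and the difference of 0.02 between Eo− and ESC was smaller than the spread (exact p = 0.943). All 4 Eo+ libraries lay above all other libraries in this ratio. The ratio of Mbnl3 to Mbnl1 was 0.263 to 0.361 in ESC libraries, 0.507 to 0.621 in Eo− libraries and 0.553 to 1.37 in Eo+ libraries. It was higher by 1.49 in Eo+ and by 0.96 in Eo− than in ESC on the log2 scale (exact permutation p = 0.0286 each, adjusted p = 0.0381). Between the fractions the difference of 0.54 was not larger than the spread in Eo+, where replicates 1 and 5 had 0.553 and 0.561 and replicates 2 and 6 had 1.37 and 1.13 (exact permutation p = 0.314).

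**Figure D4:**
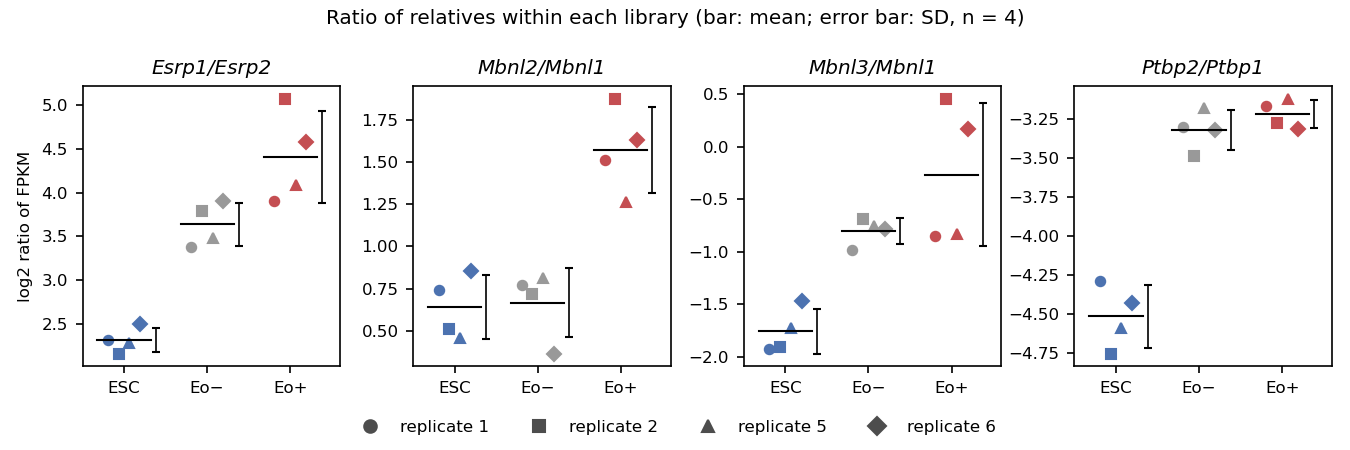
Log2 ratio of FPKM between paralogs within each library, by group, with the mean as a bar and the SD (n = 4) as an error bar. The mean Esrp1/Esrp2 ratio rose stepwise from ESC to Eo− to Eo+, with the highest Eo− library almost level with the lowest Eo+ library. The Mbnl2/Mbnl1 ratio was higher in the Eo+ libraries than in all others, and the Ptbp2/Ptbp1 ratio was higher in all sorted libraries than in ESC.

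Rbfox2 dipped in the Eo− fraction. It had 107, 105, 96.2 and 99.6 CPM in ESC replicates 1, 2, 5 and 6, 88.3, 80.7, 77.7 and 86.2 CPM in Eo−, and 115, 96.3, 80.2 and 106 CPM in Eo+. No Eo− library reached the ESC range, while the Eo+ libraries spread over both, with replicate 5 lowest. Rbfox2 was lower in Eo− than in ESC (−0.29 ± 0.10, adjusted p = 0.0167), a call lost with library totals in place of TMM (adjusted p = 0.0505). It was not called in Eo+ vs ESC (−0.05 ± 0.09, adjusted p = 0.681). In Eo+ vs Eo− it was higher by 0.25 ± 0.10 with an adjusted p of 0.0483, a call lost in 14 of 21 alternatives, 10 of which left out 1 library. The paired fit of the fractions kept it (0.25 ± 0.06, adjusted p = 0.0114).

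The other RBFOX genes were far lower. Rbfox1 had 0.341 ± 0.165 CPM in ESC, 1.93 ± 0.271 CPM in Eo− and 3.45 ± 0.668 CPM in Eo+ (SD, n = 4), a rise called in both fractions (2.59 ± 0.29, adjusted p = 5.65e-06, and 3.41 ± 0.29, adjusted p = 1.49e-07) and between them (0.82 ± 0.22, adjusted p = 0.00711). Rbfox3, known from mature neurons, was highest in Eo− (2.55 ± 0.289 CPM) and had 1.18 ± 0.311 CPM in ESC and 1.18 ± 0.415 CPM in Eo+. It was 2.25-fold lower in Eo+ than in Eo− (−1.17 ± 0.24, adjusted p = 0.00146).

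Ptbp2 rose in both fractions. It had 60.2, 41.5, 46.1 and 42.5 CPM in ESC replicates 1, 2, 5 and 6, 93.3, 81.3, 96.4 and 94.0 CPM in Eo−, and 104, 114, 98.9 and 105 CPM in Eo+. All sorted libraries lay above all ESC libraries, and all Eo+ libraries lay above all Eo− libraries by a narrow margin. Ptbp2 rose 2.23-fold in Eo+ (1.16 ± 0.10, adjusted p = 2.97e-07) and 1.93-fold in Eo− (0.95 ± 0.10, adjusted p = 4.39e-06) compared to ESC, and both calls held in all 20 alternative fits. Between the fractions the difference of 0.21 ± 0.10 was not called (adjusted p = 0.0948). It passed in the paired fit of the fractions (0.21 ± 0.08, adjusted p = 0.0480), in the unpaired fit of the fractions alone (0.21 ± 0.07, adjusted p = 0.0336) and without ESC replicate 1 (0.21 ± 0.07, adjusted p = 0.0263). With the replicate number as a block over all groups it was not called (0.21 ± 0.10, adjusted p = 0.0915). Of 6 neural markers, 3 could be tested, and Sox1, whose locus also holds another annotated gene, and Pax6 were lower in each fraction than in ESC, while Map2 was not called in either. Dcx, a marker of young neurons that was too low to be tested, had 0.0839 to 0.181 CPM in ESC, 0.439 to 0.938 CPM in Eo− and 0.566 to 1.03 CPM in Eo+ libraries, so that all sorted libraries lay above all ESC libraries. The summed level of the 5 markers with a locus was 16.9 to 22.9 CPM in ESC, 12.7 to 15.8 CPM in Eo− and 7.99 to 12.6 CPM in Eo+ libraries.

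Ptbp1 was the most abundant of the 8 genes, with a mean of 115 ± 12.2 FPKM in ESC, 96.9 ± 2.81 FPKM in Eo− and 105 ± 11.8 FPKM in Eo+ (SD, n = 4). Its CPM were 1003, 954, 946 and 779 in ESC replicates 1, 2, 5 and 6, 782, 778, 745 and 799 in Eo−, and 793, 942, 733 and 892 in Eo+. The groups overlapped, with ESC replicate 6 at the level of the Eo− libraries. Ptbp1 was lower in Eo− than in ESC (−0.24 ± 0.09, adjusted p = 0.0268), a call lost in 5 of 20 alternatives, among them without ESC replicate 1, 2 or 5. It was not called in Eo+ vs ESC (−0.13 ± 0.09, adjusted p = 0.180), but was called lower there without ESC replicate 6 (−0.21 ± 0.08, adjusted p = 0.0272) and with a filter of 1 CPM in 4 libraries (−0.21 ± 0.08, adjusted p = 0.0431). In Eo+ vs Eo− Ptbp1 was not called (0.11 ± 0.09, adjusted p = 0.333).

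The ratio of Ptbp2 to Ptbp1 in FPKM was 0.0370 to 0.0511 in ESC libraries, 0.0889 to 0.110 in Eo− libraries and 0.101 to 0.115 in Eo+ libraries. Ptbp2 made up 4.21% ± 0.558 of the sum of both in ESC, 9.10% ± 0.719 in Eo− and 9.70% ± 0.552 in Eo+. The log2 ratio rose by 1.30 in Eo+ and by 1.19 in Eo− compared to ESC (exact permutation p = 0.0286 each, adjusted p = 0.0381), and the fractions differed by 0.10, within their spread (exact permutation p = 0.171). Ptbp1 exceeded Ptbp2 per kilobase in every library. Ptbp3, the third paralog, had 66.1 ± 4.02 CPM in ESC, 79.0 ± 9.96 CPM in Eo− and 108 ± 6.76 CPM in Eo+ (SD, n = 4). It rose in Eo+ compared to ESC (0.71 ± 0.09, adjusted p = 5.21e-06). In Eo− the difference from ESC was 0.25 ± 0.09 (adjusted p = 0.0223), with 1 Eo− library within the ESC range, and DESeq2 did not call it (adjusted p = 0.0553). Ptbp3 was 1.38-fold higher in Eo+ than in Eo− (0.46 ± 0.09, adjusted p = 0.000624).

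Across the 12 libraries, the annotated loci whose log2 CPM followed each strongly changed gene most closely were taken from 10422 loci with a mean of at least 5 CPM. For Esrp2 these were Ahr (Pearson r = 0.979), Sh3gl2 (0.964) and Map7 (0.964). Ahr had a mean of 12.1 CPM in ESC, 9.56 CPM in Eo− and 3.33 CPM in Eo+. For Mbnl1 they were 4933434E20Rik (0.971), Zfp365 (0.961) and Trp53inp1 (0.946). For Ptbp2 they were Antxr1 (0.992), Fzd7 (0.989) and Ugdh (0.986), of which Fzd7, a Wnt receptor, had a mean of 74.1 CPM in ESC, 187 CPM in Eo− and 246 CPM in Eo+. These correlations describe 12 libraries that fall into 3 groups and carry no test.

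Some tissue-regulated splicing factors outside these families had larger changes. Of 24 listed, 23 were tested, and 19 changed in Eo+ compared to ESC, 14 higher and 5 lower. The median log2 fold change was 0.33, against 0.00 over all loci. In Eo− vs ESC 11 were higher and 2 lower, with a median of 0.19 against 0.02 over all loci. In Eo+ vs Eo− 7 were higher and 8 lower, with a median of 0.03 against −0.01. The replicate block called 15 in Eo− vs ESC, the 2 added ones being lower, and 16 in Eo+ vs Eo−. Rbm24, a regulator of muscle and heart splicing, had 0.617 to 0.983 CPM in ESC, 3.11 to 6.41 CPM in Eo− and 18.9 to 26.6 CPM in Eo+ libraries, and was 28.7-fold higher in Eo+ than in ESC (4.84 ± 0.25, adjusted p = 2.14e-09). Rbm20, which regulates titin splicing in the heart, rose from 2.12 ± 0.283 CPM in ESC to 8.51 ± 1.83 CPM in Eo+ (1.99 ± 0.17, adjusted p = 1.99e-07). Srrm4, a neural activator of microexons, had 0.609 ± 0.171 CPM in ESC and 2.51 ± 1.78 CPM in Eo+ (1.79 ± 0.45, adjusted p = 0.00275).

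Neural factors of this list went in both directions in Eo+ compared to ESC. Srrm4 rose, as did Nova1 (0.86 ± 0.12, adjusted p = 2.29e-05), while Elavl3 and Nova2 fell. Elavl3 had 8.18 to 11.8 CPM in ESC, 6.57 to 9.62 CPM in Eo− and 0.294 to 1.02 CPM in Eo+ libraries. It was 20.4-fold lower in Eo+ than in ESC (−4.35 ± 0.30, adjusted p = 2.94e-08) and was not called in Eo− vs ESC (−0.38 ± 0.20, adjusted p = 0.113). Nova2 was 3.72-fold lower in Eo+ than in ESC (−1.90 ± 0.20, adjusted p = 1.24e-06) and 2.82-fold lower than in Eo− (−1.50 ± 0.20, adjusted p = 5.49e-05). Rbm38, a target of p53 family factors, fell from 96.2 ± 15.6 CPM in ESC to 60.4 ± 5.49 CPM in Eo− and 36.9 ± 6.28 CPM in Eo+ (−1.38 ± 0.13 in Eo+ vs ESC, adjusted p = 6.16e-07). Celf3 and Srrm3 were higher in Eo− than in ESC, by 2.74 ± 0.31 (adjusted p = 4.78e-06) and 1.24 ± 0.21 (adjusted p = 0.000210) on the log2 scale, and Celf3 was lower in Eo+ than in Eo− (−2.15 ± 0.29, adjusted p = 4.88e-05). Elavl2 was lower in Eo− than in ESC (−0.49 ± 0.14, adjusted p = 0.00782).

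General splicing factors stayed within 1 of 0 on the log2 scale in each comparison. Among 13 SR proteins, which activate exons, 2 were higher and 2 lower in Eo+ than in ESC, and likewise 2 and 2 in Eo− vs ESC. Srsf9 rose by 0.68 ± 0.09 in Eo+ (adjusted p = 1.84e-05) and by 0.54 ± 0.09 in Eo− (adjusted p = 0.000227), and Srsf6 fell by 0.25 in Eo− (SE 0.07, adjusted p = 0.00510). Among 24 hnRNP proteins, the heterogeneous group to which PTBP1 belongs, 10 were higher and 5 lower in Eo+ and 5 higher and 6 lower in Eo−, each against ESC, and the loci of Hnrnpm, Hnrnpu, Pcbp2 and Syncrip, which are among those called, also hold other annotated genes. The largest rises of these in Eo+ vs ESC were those of Hnrnph3 (0.80 ± 0.11, adjusted p = 2.06e-05), Hnrnpll (0.64 ± 0.06, adjusted p = 8.54e-07) and Hnrnpa0 (0.62 ± 0.08, adjusted p = 5.59e-06), and Hnrnpl fell by 0.45 (SE 0.06, adjusted p = 1.13e-05). In Eo+ vs Eo− 5 hnRNP genes were higher and 0 lower, Hnrnph1 (0.36 ± 0.07, adjusted p = 0.000651) and Hnrnpr (0.34 ± 0.08, adjusted p = 0.00235) among them. The replicate block called 7 there, the 2 added ones also higher. Of 25 core spliceosome components, 1 was higher and 8 lower in Eo+ and 1 higher and 6 lower in Eo−, each against ESC, and the replicate block called 16 and 12 in all. In Eo+ compared to ESC, U2af1, which recognises the end of the intron, fell by 0.50 (SE 0.09, adjusted p = 0.000127) and Sf3b3 by 0.46 (adjusted p = 0.000324). Prpf8, a scaffold of the catalytic centre, fell there by 0.33 (SE 0.06, adjusted p = 0.000232), and Snrpb rose (0.32 ± 0.09, adjusted p = 0.00849). Between the fractions, limma called 0 of 13 SR and 0 of 25 core genes, with 0 at an unadjusted p below 0.05 in either list, and edgeR and DESeq2 also called 0.

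**Figure D5:**
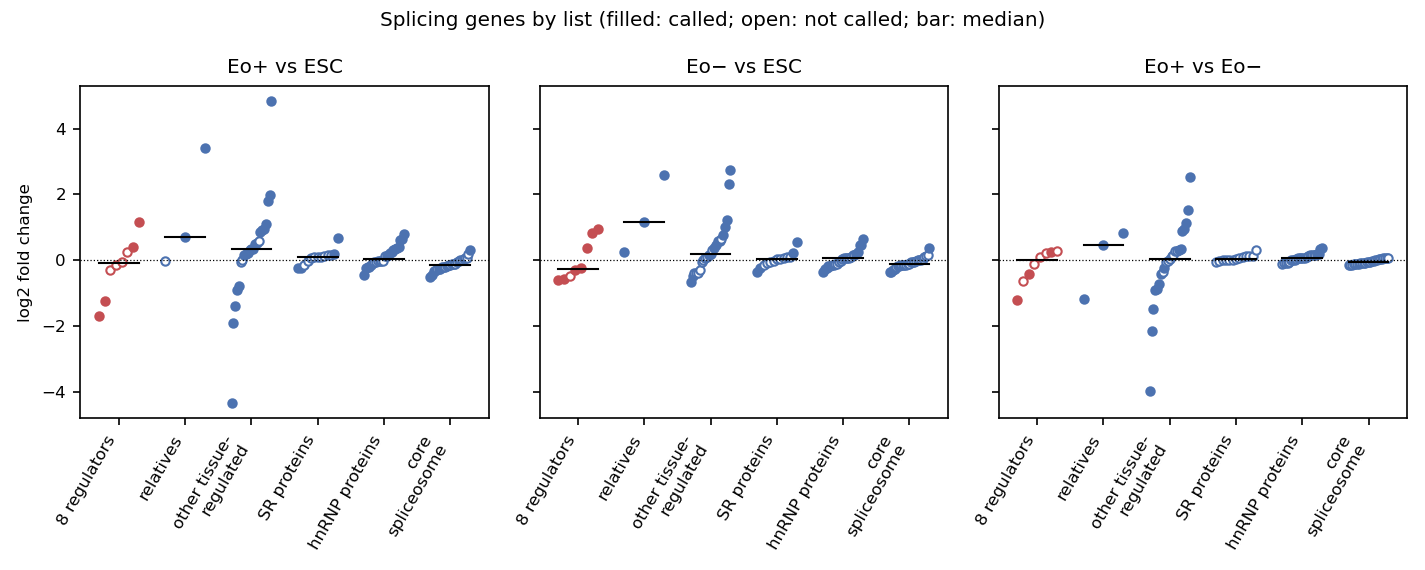
Log2 fold change of the 8 genes (red) and of 5 other lists of splicing genes (blue) in the 3 comparisons, with filled points for an adjusted p of at most 0.05 and the median of a list as a bar. Single tissue-regulated factors ranged from −4.35 to 4.84 in Eo+ vs ESC, whereas SR, hnRNP and core genes stayed within 1 of 0 on the log2 scale.

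Finally, 6 genes known for exons that these regulators control were examined at the level of the whole locus. The loci of 3 of them, Fgfr2, Ctnnd1 and Foxp1, were joined with neighbouring genes in the assembly, so that their values cannot be assigned to 1 gene and are not given here. Of the other 3, Enah and Cd44 were lower and Dlg4 was higher in each fraction than in ESC. Enah, an actin regulator with an ESRP-dependent exon, had 374 to 516 CPM in ESC, 229 to 241 CPM in Eo− and 148 to 186 CPM in Eo+ libraries (−1.45 ± 0.09 in Eo+ vs ESC, adjusted p = 1.33e-08). Dlg4, the synaptic scaffold PSD-95, whose exon repressed by PTBP1 and PTBP2 controls the stability of its RNA, rose from 11.2 ± 0.398 CPM in ESC to 24.9 ± 1.49 CPM in Eo− and 27.8 ± 1.71 CPM in Eo+ (SD, n = 4). The rise was 2.21-fold in Eo− (1.14 ± 0.08, adjusted p = 1.40e-07) and 2.47-fold in Eo+ (1.31 ± 0.08, adjusted p = 1.41e-08). Cd44, a matrix receptor spliced by ESRP proteins and also expressed by fibroblasts, was lower in Eo− than in ESC (−1.81 ± 0.43, adjusted p = 0.00218), and in ESC it was highest in replicates 1 and 5 (43.1 and 35.6 CPM), those with the highest fibroblast marker sums. In Eo+ vs ESC the fall was −1.17 (adjusted p = 0.0168). The groups overlapped there, with 8.89 to 12.3 CPM in Eo+ and 9.86 CPM in ESC replicate 6. Which exons of these genes were used was not measured.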

How the data were processed

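Poly(A) RNA of 12 libraries was sequenced in pairs. The authors mapped the reads to mm10 (STAR, given as version 2.0.4 in their processing notes), assembled and merged transcripts with Cufflinks 2.2.1 on the Ensembl annotation, and counted uniquely mapped reads per locus with HTSeq 0.6.1 in strand-specific mode. The deposited table holds raw counts for 80012 loci, and the deposited transcript annotation gives exon positions and gene names. A deposited normalized table was not used, and 0 columns belonged to other samples. Even numbers made up 55.6% to 64.5% of the values from 2 to 21 in a library, and whether both mates of a pair were counted was not tested.

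Here, HTSeq's tally rows (22.4% to 26.2% of counts as not unique, for instance) were left out of library sizes. Counts were scaled by TMM (edgeR 4.0.16) and tested with limma 3.58.1 (voom) over all 12 libraries, 1 mean per group, with calls made at Benjamini-Hochberg p up to 0.05. Voom, limma and this threshold are those of the study's methods, which do not state TMM for these groups. The 17922 loci tested had a mean above 0.1 FPKM in at least 1 group and were 14216 protein-coding, 993 lncRNA and 2713 non-annotated loci, classed with GENCODE M21. CPM are counts relative to these scaled library sizes, and FPKM divides by the summed exon length of the locus. FPKM, family sums, shares and the size of a ratio therefore depend on that length. For Esrp1 it was 6799 nt, against 4309 nt for the longest transcript, and for Esrp2 4444 nt against 3672 nt. Ratios were tested by exact permutation (scipy 1.17.1), adjusted over 12 tests. The fit was tested on simulated data with 200 changed loci. Alternatives were edgeR, DESeq2 1.42.0, other scalings and filters, a replicate block, fits of the groups compared and each library left out. P-values measure the spread between these libraries, and counting floors cover counting error only, since there were no molecular identifiers.

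The replicate number was taken to mark a differentiation set, because the methods name 4 such sets and each number occurs once per group. Deviations of same-numbered libraries from their group means correlated by 0.31 to 0.63 between Eo+ and Eo−, and by −0.13 to 0.43 for pairs with ESC.

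The members and the 13 other gene lists were chosen with earlier results of these data known. Beside the 8 members and their 3 relatives, at most 3 risen and 3 fallen genes of a list are named per comparison, those with the greatest change among called genes whose groups did not overlap and whose higher mean reached 1 CPM, and the 3 loci closest in pattern are named for members changed by at least 1 on the log2 scale in Eo+ vs ESC. Marker genes, Nova1 and Eomes were named after their values had been seen.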

Additional observations from a re-analysis of the deposited data

How the results depend on the processing

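No direction of a called gene reversed, and the number of the 8 genes called in Eo+ vs ESC stayed within 1.5 times 4 in every alternative. In Eo− vs ESC, 7 genes were called. Library totals in place of TMM left 3, with 62.5% of all loci called against 62.2%, a required log2 fold change of at least 1 left 0, and leaving out single libraries gave 4 to 8, with 4 called without ESC replicate 1, 2 or 5 or without Eo− replicate 5 or 6. In Eo+ vs Eo−, 3 were called. The replicate block gave 5 over all groups and 6 with the fractions alone, an alternative chosen after seeing the data, with 53.3% and 58.0% of all loci called against 47.7%, and a log2 fold change of at least 1 left 1. Against ESC the block called 5 genes for Eo+ and 8 for Eo−, adding Mbnl2 and Esrp2, and changed no other call of the 8 genes there. The cause of these differences was not tested. Ptbp2 and Esrp1 kept their calls in both comparisons with ESC, as did Esrp2 and Mbnl1 in Eo+ vs ESC and Esrp2 in Eo+ vs Eo−, in every alternative fit, but with a required log2 fold change of at least 1 the calls of Esrp1 in both comparisons and of Ptbp2 in Eo− vs ESC were lost. No ratio moved by more than its spread between libraries, also when counts were summed over a group or differences taken within a replicate number, and another exon length cancels out of these differences. Summing all loci of a name was not run, because each name had 1 locus. Sequencing depth did not limit the 8 genes, the lowest count of which was 1274.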
